A study of Mus musculus with 7 samples.

Results

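The genes described here encode the components of T cell receptor signalling: the CD3 and zeta chains, the coreceptor CD4 and the costimulator CD28, the kinases and adaptors that act next to the receptor, the enzymes and factors they lead to, and the proteins that restrain them. They were taken by gene symbol from a fixed list of names, with no use of measured values, and all 34 were found among the 19589 genes of the expression table. RNA from CD4+ cells sorted from spleen of C57BL/6 mice by flow cytometry was sequenced in 7 libraries. Each library, labelled as a separate sample, was taken as a separate mouse, which the values could not settle. The 4 libraries WT1 to WT4 were wild type, and the 3 libraries RT1 to RT3 were of the genotype Tet2-/-G17VRHOA. RT mice lack Tet2, an enzyme that oxidises methylated cytosine in DNA, and carry the G17V form of the small GTPase RHOA. The labels do not give the age of the mice, the promoter or cell type that drives the RHOA form, or any treatment, and the deletion of Tet2 and the RHOA form were not separated in any group. The comparison asked how each component differed between RT and wild-type cells.

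When a T cell receptor binds its peptide on another cell, the kinase Lck, held near the receptor by CD4, phosphorylates the tails of the CD3 and zeta chains, and Zap70 docks there and phosphorylates the adaptors LAT and SLP-76 (the product of Lcp2). These gather phospholipase C gamma 1, whose products release calcium, which brings NFAT factors into the nucleus, and make diacylglycerol, which draws in RasGRP1 (upstream of Ras) and protein kinase C theta (upstream of the CARMA1, Bcl10 and MALT1 complex and NF-kappa B). Phosphatases, the kinase Csk, ubiquitin ligases and diacylglycerol kinases hold the pathway back.

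The libraries were of very unequal depth, and both genotypes stood in each set. The values are RPKM, reads scaled to the length of the gene model and to the library total, and their steps gave back the whole reads behind them. WT1, WT2 and RT1 held 8875240, 10366777 and 11033541 reads in genes and are called deep. WT3, WT4, RT2 and RT3 held 96516 to 111479 and are called shallow. For a gene of 2 kb, 1 read came to 0.0229 to 0.0269 RPKM in a deep library and to 4.11 to 4.73 RPKM in a shallow one. Where a shallow library had no read of a gene, its level could still be as high as 26.9 to 31.1 RPM (recovered reads scaled to their total), taking 3 reads as the limit, which covers counting error only. No member had under 10 reads in a deep library, whereas 11 members did in RT2 and 6 in each of WT3, WT4 and RT3. Tet2 had 6.32, 4.68, 2.86 and 2.79 RPKM in the wild-type libraries and 5.03, 0.803 and 0 RPKM in RT1 to RT3 (1292, 1 and 0 reads), so RT1 lay within the deep wild-type values. Which part of Tet2 was deleted is not stated in the labels, so its whole-gene value is no check of them. Xist, read only in females, stood at 35.7 to 85.2 RPKM in WT1, WT2, RT1 and RT2 and at 0 to 0.459 RPKM in WT3, WT4 and RT3, so sex differed within the shallow wild-type and RT comparison.

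T cell genes were read in each library, with 33 reads or more for each CD3 and zeta chain gene and 122 or more for Cd4, which shows T cell RNA but not how pure the sorted cells were. Markers of other cells moved with the groups, and differently in each set. The summed level of 12 B cell markers was 1054 and 689 RPM in WT1 and WT2 and 1503 RPM in RT1. In the shallow libraries it was 6005 and 6350 RPM in WT3 and WT4 against 1171 and 1525 RPM in RT2 and RT3, where 7 and 6 of the 12 markers were at 0. The sum of 8 macrophage and monocyte markers was 3685 RPM in RT1 against 716 to 1523 RPM in wild type and 487 and 655 RPM in RT2 and RT3. Cd74, a B cell marker that other antigen-presenting cells also express, was at 4311 RPM in WT3 and 4452 RPM in WT4, above Cd4 there (1170 and 1129 RPM). RT1, the only deep RT library, was thus the highest in macrophage markers, and WT3 and WT4 the highest in B cell markers. The sum of 6 erythroid markers was 1760 and 1731 RPM in WT3 and WT4 and 111 to 404 RPM in the other libraries. That of 7 dendritic cell markers was 476 and 481 RPM in WT3 and WT4 and 75.5 to 107 RPM elsewhere. The 2 CD8 and 5 NK cell markers summed to at most 27.8 and 13.3 RPM.

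**Figure D1:**
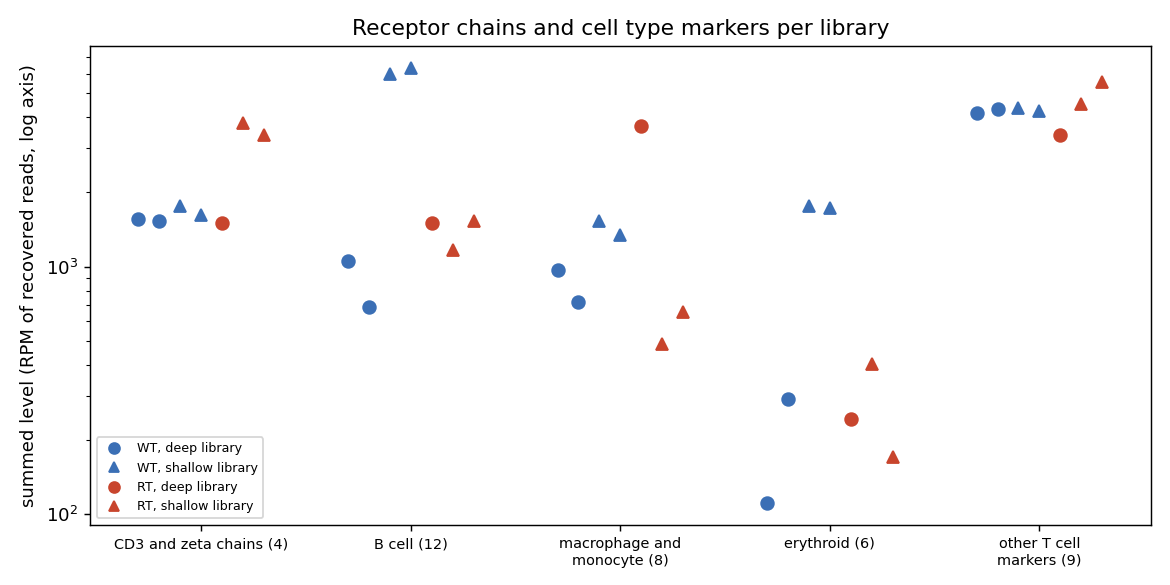
Summed level (RPM of recovered reads, log axis) of the 4 CD3 and zeta chain genes and of marker lists of other cell types, 1 point per library, with the number of genes of each list in parentheses. The CD3 and zeta chain sum lies between 1501 and 1760 RPM in the 5 libraries other than RT2 and RT3, which stand at 3813 and 3382 RPM, while the B cell sum is highest in WT3 and WT4, at 6005 and 6350 RPM.

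Promoter windows of 3 members that differed between the groups are printed to show what stands at their starts: Zap70, the kinase that rose, and Txk and Grap2, the kinase and the adaptor with the largest falls. Each is the RefSeq window from 250 bases before to 50 after a transcript start (build GRCm38.p6), printed on the strand of the gene, and these windows were picked after their matches were seen. Capitals mark matches, on either strand, to 4 short motifs: ETS (GGAAGT), RUNX (TGTGGT), NFAT (GGAAAA) and TCF and LEF (CTTTGA). The Zap70 window is the second of its 3 RefSeq windows, at chr1:36764265-36764564 (plus strand), inside the span of the gene, and holds an ETS and a RUNX match. The Txk window, at chr5:72752728-72753027 (minus strand), is at the annotated start of the gene and holds a TCF and LEF match, read on the opposite strand, and an ETS match. The Grap2 window, at chr15:80623233-80623532 (plus strand), lies inside the span of the gene and holds an NFAT match. No marked match overlaps another.
Zap70: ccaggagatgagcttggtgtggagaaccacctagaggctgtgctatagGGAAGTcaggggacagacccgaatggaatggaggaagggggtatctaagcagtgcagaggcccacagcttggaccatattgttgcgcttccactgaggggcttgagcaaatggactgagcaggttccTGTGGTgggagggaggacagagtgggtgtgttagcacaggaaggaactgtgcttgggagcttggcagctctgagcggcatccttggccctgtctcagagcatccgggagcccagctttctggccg
Txk: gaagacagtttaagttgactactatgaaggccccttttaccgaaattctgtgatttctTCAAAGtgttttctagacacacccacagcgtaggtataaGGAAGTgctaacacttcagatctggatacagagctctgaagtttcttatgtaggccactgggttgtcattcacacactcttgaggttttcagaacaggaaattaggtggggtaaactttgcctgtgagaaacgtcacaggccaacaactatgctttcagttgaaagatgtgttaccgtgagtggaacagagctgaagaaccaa
Grap2: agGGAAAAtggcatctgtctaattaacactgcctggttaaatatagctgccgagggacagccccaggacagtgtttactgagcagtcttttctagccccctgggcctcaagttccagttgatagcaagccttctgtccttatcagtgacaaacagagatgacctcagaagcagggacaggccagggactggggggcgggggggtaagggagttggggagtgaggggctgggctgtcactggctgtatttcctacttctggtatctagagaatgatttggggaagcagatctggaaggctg

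Over the members, 29 of the 34 matched RefSeq windows, 45 in all, and Cd28, Cd4 and Pag1 did not. Malt1 and Nfatc1 lie on chromosome 18, whose windows were left out for the members, so neither was looked up. The shares over all windows were taken without that limit. The ETS letters stood in 20 of the 45 windows (44.4%) against 23.8% of all 32851 windows of the same length. RUNX letters stood in 6 (13.3%, against 16.8% of all), NFAT letters in 7 (15.6%, against 23.4%) and TCF and LEF letters in 9 (against 16.0% of all). Windows of 1 gene can overlap, and a match in letters is a description, not a binding site. In the 16 windows of the members called below, ETS letters stood in 4 (25.0%) and each other motif in 3 (18.8%). Of the called members, Malt1 and Pag1 are not in these windows.

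The result depended on how the depth was handled. In the planned test, limma on log2(RPKM + 1) with genotype as the only term, 0 of the 34 members passed the threshold of 0.05 on adjusted p, and the smallest limma adjusted p was 0.268, for Rasgrp1. At an unadjusted p under 0.05 there were 2 members higher in RT (Zap70 and Malt1) and 5 lower (Txk, Grap2, Rasgrp1, Pag1 and Cbl), against 4.53% of all genes higher and 4.16% lower. Over all 9605 genes of that test, 0.0416% were called higher and 0.0104% lower, so few genes of any kind passed it. The median log2 fold change was 0.22 for the members and 0.00 over all genes. Rescaling each library to the same RPKM sum moved the median of all genes to -0.22 and that of the members to 0.02, and again called 0 members (unadjusted limma p under 0.05 for 5 higher and 7 lower, against 3.51% and 3.28% of all genes).

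In the second test, limma voom on the recovered reads with terms for genotype and library set, 3 of the 34 members rose (8.82%), 8 fell (23.5%) and 23 did not pass. Over all 5880 genes tested, 9.54% were called higher and 8.18% lower. The median log2 fold change of the members was -0.05, against -0.03 over all genes. The members that rose were Zap70, Plcg1 and Malt1. Those that fell were Txk, Grap2, Rasgrp1, Pag1, Themis, Dgka, Ubash3a and Was. Txk and Pag1 reached the filter of 10 reads over the shallow libraries only through WT3 and WT4. Without RT1, limma voom called 0 members and 0 of all 5880 genes. By unadjusted p (under 0.05) it then had 7 members higher and 4 lower, against 2.77% and 5.44% of all genes. The shallow libraries fitted alone, which also leave out RT1, called 3 of the 11: Zap70, Grap2 and Rasgrp1. These are bulk samples, in which fewer cells of a type and less RNA per cell cannot be told apart, and RT1 carried the macrophage markers named above, 6 of 7 of which were called higher in the deep libraries alone (median log2 fold change 2.32). Their part in the differences of the members was not tested. All values below named log2 fold change come from this second test, RT against WT, with its standard error. For some members they lay near those of the deep libraries alone, where RT1 is the only RT library. Fyn was at 0.40, with 0.44 in the deep and -1.07 in the shallow set, and Themis at -1.29, with -1.37 and 0.17. Others lay between the sets, such as Cd4 at 0.22, with -0.10 and 0.76.

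**Figure D2:**
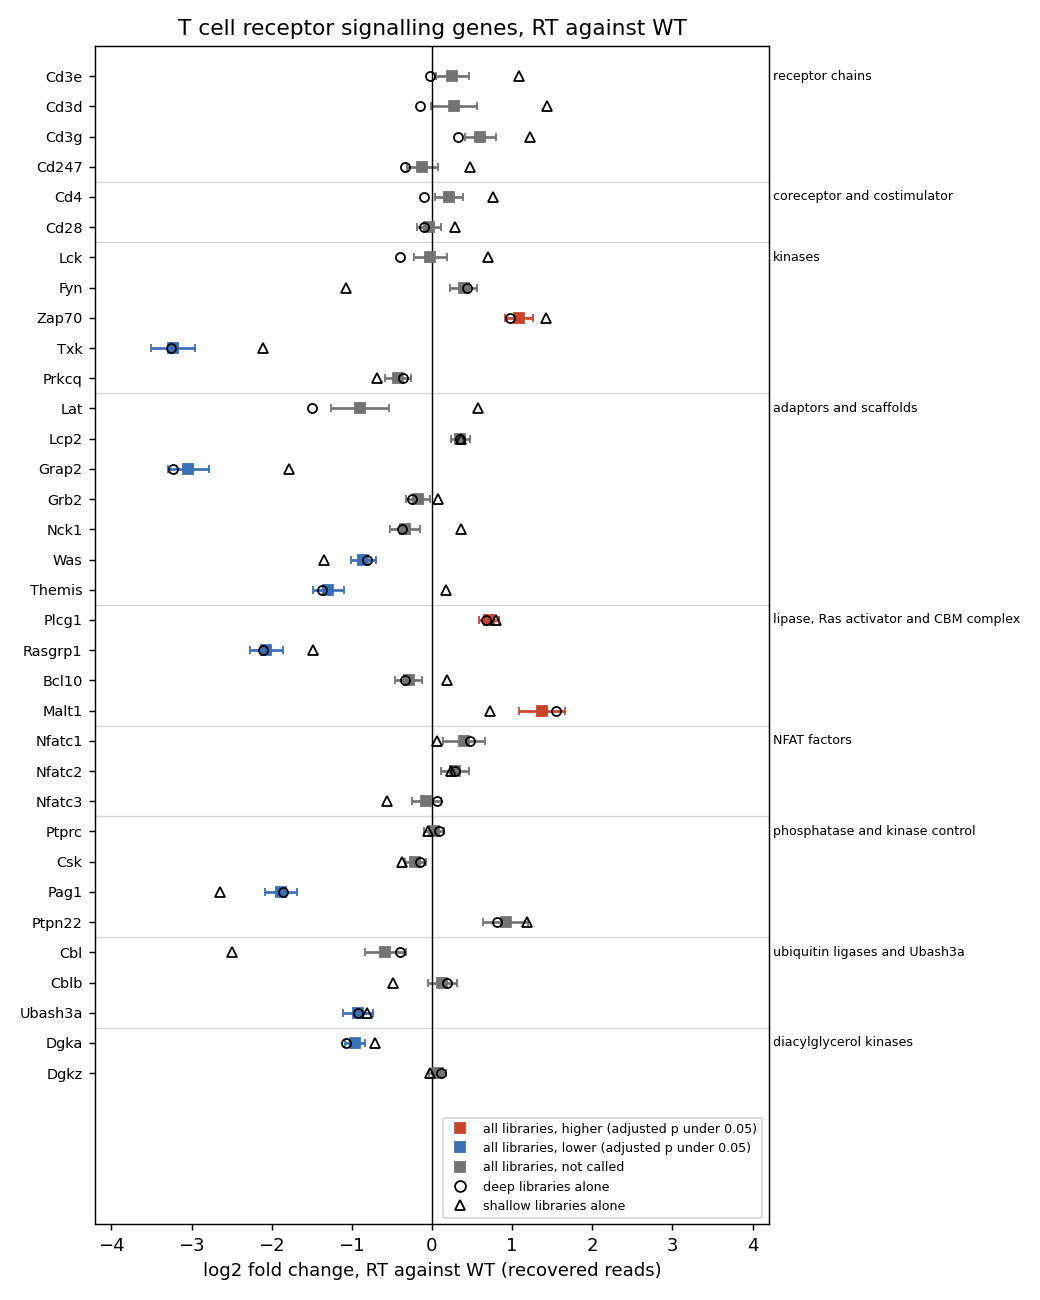
Log2 fold change of RT against WT for each of the 34 members by role, from limma voom on recovered reads. Squares with bars give the estimate over all 7 libraries with its standard error. They are red for the 3 called higher and blue for the 8 called lower. Open circles and triangles give the deep and the shallow libraries fitted alone. For some members, such as Fyn and Themis, the square lies near the deep estimate, where RT1 is the only RT library.

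The order of the members by level differed between libraries. Dgka had the highest RPKM of all members in each wild-type library (138 to 403 RPKM) and Lck the next (133 to 281 RPKM). In RT1 and RT3 Cd4 was the highest, at 122 and 463 RPKM, with Lck next at 111 and 452 RPKM. In RT2 the highest was Cd3d, at 531 RPKM, followed by Lat at 514 RPKM. The lowest member was Nck1 in WT1, WT2 and WT4, Themis in WT3, Txk in RT1 and Pag1 in RT3, and in RT2 Txk and Pag1 were both at 0. RPKM ran higher in the shallow libraries for many members, and recovered reads made up 88.3% to 91.6% of the library total there against 47.8% to 51.7% in the deep libraries. Positions of RPKM values across the 2 sets are therefore descriptions, and for Fyn, Grap2, Malt1 and Cblb, whose gene lengths differ between the sets, only positions within a set are on 1 scale.

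The receptor chains did not pass the test over all libraries. Cd3e, which encodes the epsilon chain, stood at 72.2, 74.0, 101 and 66.5 RPKM in WT1 through WT4 and at 73.3, 185 and 175 RPKM in RT1 to RT3. Cd3d, for the delta chain, stood at 67.8, 87.4, 167 and 150 RPKM in wild type and at 70.9, 531 and 376 RPKM in RT. In both genes RT1 lay between the deep wild-type libraries, while RT2 and RT3 lay above every wild-type library. Cd3g, for the gamma chain, stood at 43.3, 44.7, 136 and 141 RPKM in wild type and at 56.1, 399 and 287 RPKM in RT, with RT above WT in each set. Cd247, which encodes the zeta chain that carries most of the phosphorylated motifs, stood at 34.9, 34.5, 74.1 and 81.8 RPKM in wild type and at 27.9, 85.2 and 143 RPKM in RT. Its RT1 value was the lowest of all 7 libraries, and RT2 and RT3 were the highest. The log2 fold changes were 0.25 ± 0.21 for Cd3e, 0.27 ± 0.28 for Cd3d, 0.60 ± 0.19 for Cd3g and -0.12 ± 0.19 for Cd247, with limma voom adjusted p from 0.0657 (Cd3g) to 0.708 (Cd247). Without WT1, Cd3g was called (0.73, limma voom adjusted p = 0.0450).

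In the shallow libraries alone, Cd3e, Cd3d and Cd3g rose, with log2 fold changes of 1.08 ± 0.28, 1.43 ± 0.29 and 1.22 ± 0.25 (limma voom adjusted p = 0.00841, 0.000431 and 0.000720). In the deep libraries alone their log2 fold changes were -0.02, -0.15 and 0.33, and none passed. WT3 and WT4, the shallow wild-type libraries, were the libraries with high B cell, erythroid and dendritic cell marker sums, and 6 of the 11 B cell markers tested were called lower in the same shallow fit, their median being -3.96 in log2 fold change. The part of these markers in the CD3 values was not tested. In the sum of the 4 chains WT3 and WT4 stood at 1760 and 1620 RPM beside 1559 and 1528 RPM in WT1 and WT2, and RT2 and RT3 at 3813 and 3382 RPM. The sum of 9 other T cell markers was 4180 to 4358 RPM in wild type, 4548 RPM in RT2, 5562 RPM in RT3 and 3383 RPM in RT1.

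Cd4, the coreceptor on which the cells were sorted, stood at 127, 129, 256 and 249 RPKM in WT1 through WT4 and at 122, 420 and 463 RPKM in RT1 to RT3. RT1 lay just below the deep wild-type pair, and RT2 and RT3 lay above all others. Its log2 fold change was 0.22 ± 0.17 and did not pass, and in the shallow libraries alone it was 0.76 ± 0.21 (limma voom adjusted p = 0.0150), beside the same marker differences. Cd28, for the costimulatory receptor, stood at 31.6, 29.8, 45.3 and 28.2 RPKM in wild type and at 29.1, 44.8 and 45.7 RPKM in RT. The groups overlapped, and the log2 fold change of Cd28 was -0.03 ± 0.15.

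Of the 5 kinases, Zap70 rose, Txk fell, and Lck, Fyn and Prkcq did not pass. Zap70 (chromosome 1, 36761798 to 36782818, mm10, as annotated by GENCODE M21), which docks on phosphorylated CD3 and zeta chains, stood at 53.4, 53.8, 138 and 71.5 RPKM in WT1 through WT4 and at 107, 332 and 234 RPKM in RT1 to RT3. RT was above WT within each set, with an overlap between WT3 and RT1 across sets. Its log2 fold change was 1.09 ± 0.18, a 2.13-fold rise (limma voom adjusted p = 0.00580), and each set alone called it (deep 0.98, shallow 1.42). Scaling the libraries to their CD3 and zeta chain reads, an alternative chosen after seeing the data, left it at 0.93 ± 0.16 (limma voom adjusted p = 0.00732). Without RT1 it was 1.42 ± 0.37, not called.

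Txk (chromosome 5, 72695978 to 72752777), a Tec family kinase of T cells, stood at 7.78, 6.02, 6.15 and 8.42 RPKM in wild type, from 987, 825, 5 and 7 reads. In RT it stood at 0.718, 0 and 3.61 RPKM, from 107, 0 and 3 reads. Every RT library lay below every wild-type one. With a log2 fold change of -3.23 ± 0.28 (limma voom adjusted p = 0.000517), Txk had the largest fall among the members. Txk passed the filter on shallow reads only through its wild-type reads, so its lower shallow RT values are no separate support. In RT1 the level rested on 107 reads, whereas RT2 and RT3 held too few to place the level closely, and without RT1 the log2 fold change was -2.19 ± 1.40, not called.

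Lck, the kinase that phosphorylates the receptor tails, stood at 133, 156, 281 and 269 RPKM in wild type and at 111, 475 and 452 RPKM in RT. RT1 lay below the deep wild-type pair and RT2 and RT3 above the shallow pair. With all libraries its log2 fold change was -0.02 ± 0.21, not called. The deep set alone gave -0.39 and the shallow set alone 0.70 (limma voom adjusted p = 0.0406), so its direction was not the same in both. Fyn, the other Src family kinase of T cells, stood at 57.3 and 52.1 RPKM in WT1 and WT2 and 75.3 RPKM in RT1, but at 6.64, 6.49, 3.20 and 2.78 RPKM in WT3, WT4, RT2 and RT3, from 7, 7, 3 and 3 reads. Its values came out as whole reads only with a gene length of 4363 bases for the deep set and 8859 for the shallow set, so the gene models behind the 2 sets differed. The log2 fold change of Fyn was 0.40 ± 0.17 (limma voom adjusted p = 0.144). The deep set alone gave 0.44 and the shallow set alone -1.07 ± 0.68, so the direction of Fyn differed between them. Prkcq, which encodes protein kinase C theta, stood at 29.3, 40.4, 47.5 and 44.1 RPKM in wild type and at 27.1, 24.0 and 34.8 RPKM in RT, below WT in each set. Its log2 fold change of -0.42 ± 0.16 did not pass (limma voom adjusted p = 0.115), but did without WT1 (-0.58, limma voom adjusted p = 0.0248).

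Of the 7 adaptors and scaffolds, Grap2, Themis and Was fell and none rose. Grap2 (chromosome 15, 80572594 to 80652854), which encodes Gads, the adaptor that joins SLP-76 to LAT, stood at 34.4, 41.7, 47.1 and 58.0 RPKM in WT1 through WT4 and at 4.10, 9.09 and 23.7 RPKM in RT1 to RT3. It was read 1008, 1320, 35 and 44 times in wild type and 141, 6 and 18 times in RT. RT lay below WT within each set, and the gene length behind the values was 1579 bases in the deep and 6243 in the shallow set. Grap2 fell by 3.04 ± 0.26 in log2 units (limma voom adjusted p = 0.000517) and was called in each set alone (deep -3.23, shallow -1.79). Without RT1 it was -1.78 ± 0.52, not called.

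Themis (chromosome 10, 28668360 to 28883818), a T cell scaffold that controls phosphatases near the receptor, stood at 12.1, 11.9, 4.65 and 9.10 RPKM in wild type and at 4.74, 9.42 and 6.37 RPKM in RT. RT1 lay below WT1 and WT2, but RT2 (9 reads) was above both shallow wild-type libraries (5 and 10 reads) and RT3 (7 reads) between them in RPKM. For Themis the log2 fold change was -1.29 ± 0.19 (limma voom adjusted p = 0.00389), but 0.17 ± 0.54 in the shallow libraries alone and 0.16 ± 0.68 without RT1. Was (chromosome X, 8081453 to 8090498), for the actin regulator WASP, stood at 32.2, 34.2, 63.6 and 86.3 RPKM in wild type and at 19.2, 23.8 and 34.5 RPKM in RT, below WT in each set. Its log2 fold change was -0.86 ± 0.16 (limma voom adjusted p = 0.00855). The log2 fold change of Was without RT1 was -1.34 ± 0.52, not called, and without WT3 and WT4 it was -0.81 ± 0.21, also not called (limma voom adjusted p = 0.0584).

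Lat, the membrane adaptor phosphorylated by Zap70, differed in direction between the sets. It stood at 102 and 119 RPKM in WT1 and WT2 against 39.6 RPKM in RT1, and at 239 and 258 RPKM in WT3 and WT4 against 514 and 293 RPKM in RT2 and RT3. Thus the deep RT library was below and the shallow RT libraries above their wild-type counterparts. The log2 fold change of Lat over all libraries was -0.90 ± 0.36, not called (limma voom adjusted p = 0.132). The deep set alone gave -1.50 ± 0.22 (limma voom adjusted p = 0.0135) and the shallow set alone 0.58 ± 0.28 (limma voom adjusted p = 0.242), and Lat was also called without RT2 (-1.27, limma voom adjusted p = 0.0237). The difference between the sets, tested as an interaction, gave a limma voom adjusted p of 0.0732 for Lat, the smallest of the members. By limma voom no member passed that interaction, against 0.612% of all 5880 genes. At an unadjusted p under 0.05, 7 members had the larger value in the shallow set and 1 the smaller, against 2.47% and 6.14% of all genes.

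The other adaptors gave smaller values. Lcp2, for SLP-76, stood above wild type in both sets, at 66.2 RPKM in RT1 against 52.9 and 49.5 RPKM, and at 136 and 153 RPKM in RT2 and RT3 against 106 and 112 RPKM, with a log2 fold change of 0.35 ± 0.12 that did not pass (limma voom adjusted p = 0.0777). It was called without WT1 (0.42, limma voom adjusted p = 0.0413). Grb2, which links receptors to the Ras exchange factor SOS, and Nck1, which links the receptor to actin, had log2 fold changes of -0.17 ± 0.15 and -0.34 ± 0.19. Nck1 held only 2 to 6 reads in each shallow library.

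Downstream of the adaptors, Plcg1 and Malt1 rose and Rasgrp1 fell. Plcg1 (chromosome 2, 160731300 to 160775760), the phospholipase that makes the calcium and diacylglycerol signals, stood at 33.0, 29.5, 50.3 and 51.3 RPKM in WT1 through WT4 and at 50.8, 89.1 and 94.2 RPKM in RT1 to RT3. RT was above WT in each set. Plcg1 had a log2 fold change of 0.71 ± 0.13, a 1.64-fold rise (limma voom adjusted p = 0.00792). The deep set alone gave 0.68 and the shallow set 0.80, neither called. It was 0.80 ± 0.30 without RT1, not called, and 0.60 ± 0.17 with libraries scaled to the CD3 and zeta chain reads (limma voom adjusted p = 0.0583).

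Rasgrp1 (chromosome 2, 117279993 to 117343001), the exchange factor that turns on Ras in response to diacylglycerol, stood at 33.7, 47.3, 34.5 and 52.9 RPKM in wild type and at 9.36, 11.8 and 19.1 RPKM in RT. Every RT library lay below every wild-type one, and RT1 alone held 1143 reads against 3500 and 5307 in WT1 and WT2. Rasgrp1 had a log2 fold change of -2.06 ± 0.20 (limma voom adjusted p = 0.000687), and each set alone called Rasgrp1 (deep -2.11, shallow -1.49). Without RT1 it was -1.49 ± 0.67, not called.

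Malt1, the protease of the CARMA1, Bcl10 and MALT1 complex, stood at 28.6, 16.9, 25.2 and 43.6 RPKM in wild type and at 65.3, 57.8 and 55.9 RPKM in RT. RT lay above WT within each set, with a gene length of 5073 bases behind the deep and 8677 behind the shallow values. Malt1 had a log2 fold change of 1.37 ± 0.28, a 2.59-fold rise (limma voom adjusted p = 0.0145), 1.55 from the deep set alone and 0.72 from the shallow set. Without RT1 it was 0.72 ± 0.65, not called. Bcl10, its partner, had a log2 fold change of -0.29 ± 0.17 (limma voom adjusted p = 0.279).

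The 3 NFAT genes, the calcium-regulated transcription factors of the pathway, did not pass. The log2 fold changes were 0.39 ± 0.26 for Nfatc1, 0.28 ± 0.18 for Nfatc2 and -0.07 ± 0.18 for Nfatc3, with limma voom adjusted p from 0.307 to 0.822. Nfatc1 stood at 40.5, 24.2, 59.9 and 47.6 RPKM in WT1 through WT4 and at 44.6, 48.3 and 67.5 RPKM in RT1 to RT3, with overlap between the groups in the shallow set. In the deep set RT1 lay above both wild-type libraries in RPKM, closer to WT1 than to WT2. These values came from 7228 reads in RT1 and 5583 and 3607 in WT1 and WT2.

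**Figure D3:**
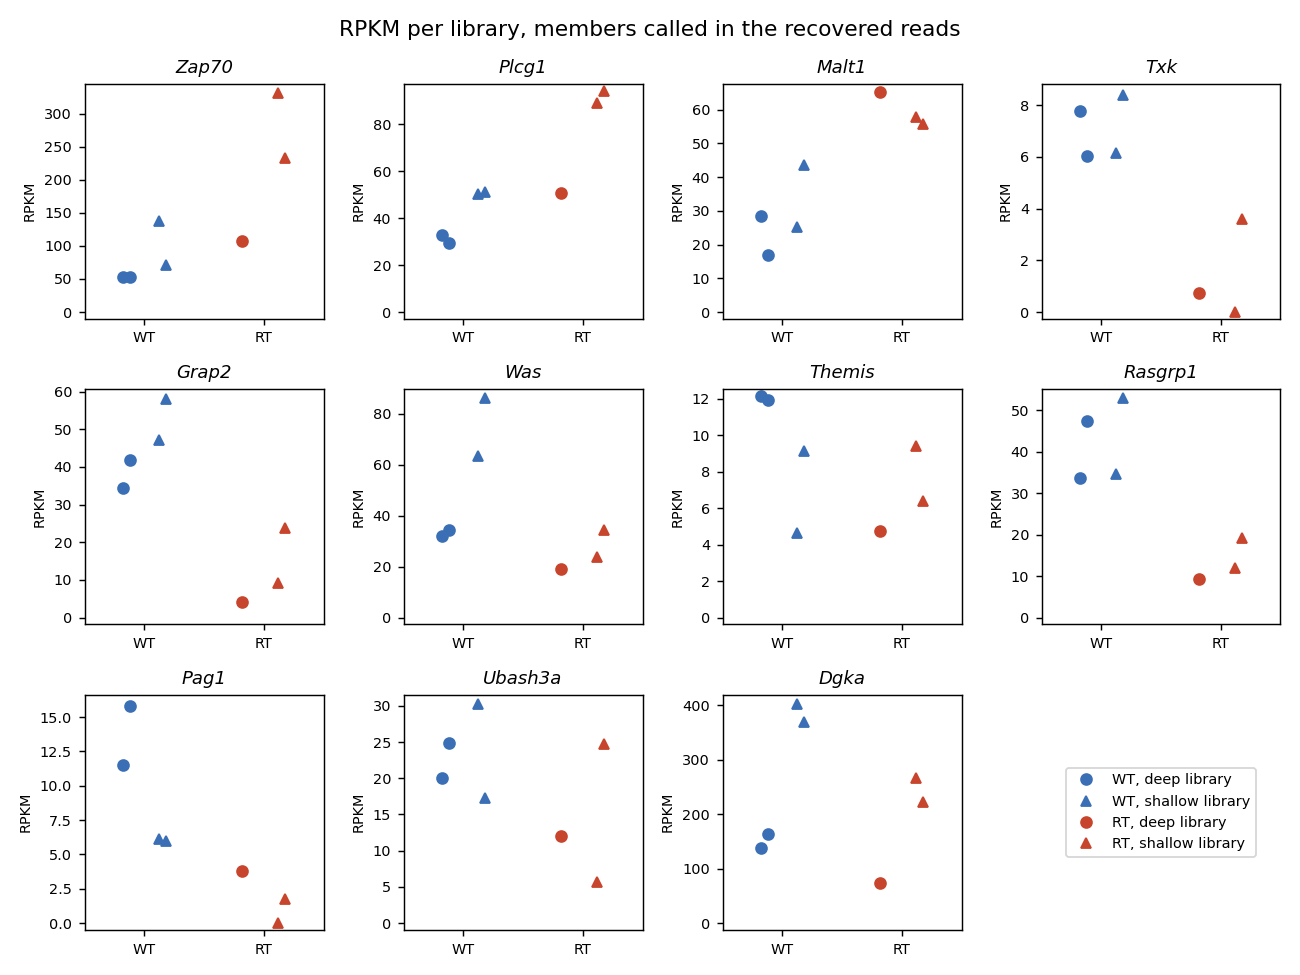
RPKM in each library for the 11 members called in the recovered reads, with wild-type libraries in blue, RT in red, deep libraries as circles and shallow ones as triangles. Within each set the RT points lie above the wild-type points for Zap70, Plcg1 and Malt1 and below them for Txk, Grap2, Was, Rasgrp1, Pag1 and Dgka, while for Themis and Ubash3a the shallow groups overlap.

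Among the regulators of the Src kinases, Pag1 fell and Ptprc, Csk and Ptpn22 did not pass. Pag1 (chromosome 3, 9687479 to 9833679), a membrane anchor for the inhibitory kinase Csk, stood at 11.5, 15.8, 6.14 and 6.01 RPKM in WT1 through WT4, from 2053, 3040, 7 and 7 reads. In RT1 to RT3 the values were 3.79, 0 and 1.72 RPKM, from 792, 0 and 2 reads. All RT libraries lay below all wild-type libraries, but the shallow ones held few reads. Pag1 too passed the filter on shallow reads only through wild type, so its lower shallow RT values are no separate support. Pag1 had a log2 fold change of -1.88 ± 0.20 (limma voom adjusted p = 0.000992), and -2.66 ± 1.30 without RT1, not called.

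Ptpn22, a phosphatase that dephosphorylates Lck and Zap70, stood at 40.4, 21.3, 110 and 110 RPKM in wild type and at 52.2, 221 and 302 RPKM in RT. RT was above WT in each set. Its log2 fold change of 0.92 ± 0.28 was the largest among the members that did not pass and are higher in RT (limma voom adjusted p = 0.0602). It was called in the shallow libraries alone (1.18 ± 0.27, limma voom adjusted p = 0.00244) and without WT1 (1.27, limma voom adjusted p = 0.00112). Csk itself was at -0.21 ± 0.13. Ptprc, the CD45 phosphatase found on all white blood cells, was at 0.03 ± 0.12, with 273 reads or more in every library.

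Of the ubiquitin ligases and their partner, Ubash3a fell. Ubash3a (chromosome 17, 31207873 to 31246892), which encodes a phosphatase family member that restrains receptor signalling, stood at 19.99, 24.9, 30.3 and 17.3 RPKM in wild type and at 11.98, 5.68 and 24.7 RPKM in RT. RT1 lay below WT1 and WT2, and RT3 lay between WT3 and WT4. The shallow values of Ubash3a came from only 12, 7, 2 and 10 reads in WT3, WT4, RT2 and RT3. Ubash3a had a log2 fold change of -0.92 ± 0.19 (limma voom adjusted p = 0.0132), and it was -0.83 ± 0.85 without RT1 and -0.92 ± 0.26 without WT3 and WT4, neither called.

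Cbl, a ubiquitin ligase that marks activated receptor complexes for breakdown, stood at 23.8, 22.2, 35.4 and 26.6 RPKM in wild type and at 17.7, 6.13 and 4.66 RPKM in RT. All RT libraries lay below all wild-type ones, though the distance was larger in the shallow set (52 and 40 reads against 8 and 7). The log2 fold change over all libraries was -0.58 ± 0.25 and did not pass (limma voom adjusted p = 0.158), while the shallow libraries alone gave -2.50 ± 0.43 (limma voom adjusted p = 3.5e-05) and the deep ones -0.40 ± 0.22. Cblb, its relative, which sets the need for costimulation, had a log2 fold change of 0.13 ± 0.18.

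The 2 diacylglycerol kinases, which remove the lipid that draws in RasGRP1, differed. Dgka (chromosome 10, 128720134 to 128744855) fell, from 138, 164, 403 and 368 RPKM in WT1 through WT4 to 72.8, 266 and 222 RPKM in RT1 to RT3. RT lay below WT in each set. The log2 fold change of Dgka was -0.96 ± 0.13, and the level in RT was 0.516 times that of wild type (limma voom adjusted p = 0.00250). The deep set alone gave -1.07, called, and the shallow set -0.71, not called, and it was -0.71 ± 0.23 without RT1, not called. Dgkz stood at 52.3, 55.1, 131 and 121 RPKM in wild type and at 59.1, 133 and 123 RPKM in RT, and its log2 fold change was 0.07 ± 0.10.

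A ratio of 2 members within a library does not depend on the library total, and 5 such ratios were compared with an exact permutation test over the 35 assignments of the libraries, two-sided. The smallest p this design allows is 0.0571, so no ratio could pass. The RPKM ratio of Dgka to Dgkz was 2.64, 2.97, 3.06 and 3.05 in WT1 to WT4 and 1.23, 2.003 and 1.81 in RT1 to RT3. Its wild-type libraries, deep and shallow alike, lay close together and above all 3 RT libraries (exact permutation p = 0.0571, adjusted over the 5 ratios 0.143). The ratio of Cblb to Cbl was 0.597, 0.708, 0.340 and 0.589 in wild type and 0.977, 0.884 and 3.70 in RT. The gene length behind Cblb was 6323 bases in the deep and 10475 in the shallow set, so its ratio is not on 1 scale across sets. Its test over all libraries (exact permutation p = 0.0571, adjusted 0.143) therefore says nothing of the genotypes. Within each set RT lay above WT, but RT2 and RT3 held only 6 and 22 reads of Cblb and 8 and 7 of Cbl. The ratios of Cd247 to Cd3e and Nfatc1 to Nfatc2 overlapped between the groups (exact permutation p = 0.457 and 0.857). The Fyn to Lck ratio is likewise not on 1 scale, so its test over all libraries (exact permutation p = 0.400) says nothing of the genotypes. It was 0.432 and 0.333 in WT1 and WT2 against 0.675 in RT1, and 0.0236 and 0.0241 in WT3 and WT4 against 0.00675 and 0.00616 in RT2 and RT3. RT lay above WT in the deep set and below it in the shallow set, where Fyn held 3 to 7 reads a library.

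**Figure D4:**
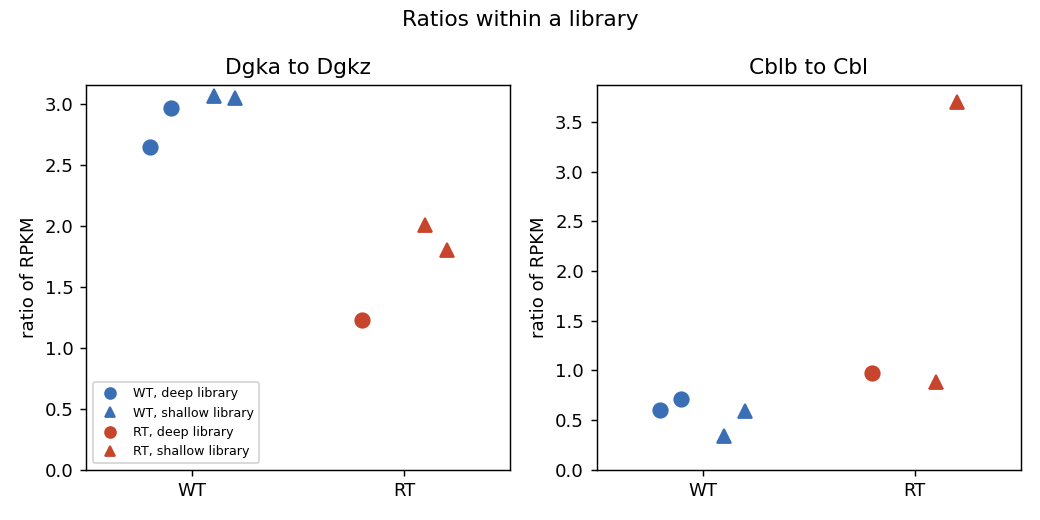
RPKM ratio of Dgka to Dgkz and of Cblb to Cbl in each library, with wild type in blue, RT in red, deep libraries as circles and shallow ones as triangles. The Dgka to Dgkz ratio is 2.64 to 3.06 in wild type and 1.23 to 2.003 in RT. The Cblb to Cbl ratio can be compared only within a set, as the gene length behind Cblb differs between the sets.

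By position of the library values, 7 members had RT above WT within both sets (Cd3g, Zap70, Lcp2, Plcg1, Malt1, Nfatc2 and Ptpn22), against 12.3% of all 5880 genes. Another 8 had RT below WT within both sets (Txk, Prkcq, Grap2, Was, Rasgrp1, Pag1, Cbl and Dgka), against 12.7% of all. Of these, Txk and Pag1 passed the filter on shallow reads only through wild type.

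Among 79 other genes of the pathway, 70 could be tested in the recovered reads, and 7 rose, 11 fell and 52 did not pass, where 9.54% of all genes rose and 8.18% fell. The planned test called 0 of the 79 (unadjusted limma p under 0.05 for 3 higher and 3 lower, against 4.53% and 4.16% of all genes). The median log2 fold change of the 70 was -0.04, against -0.03 over all genes. Sit1, an inhibitory transmembrane adaptor, fell by 1.68 ± 0.20 in log2 units, and Cd5, an inhibitory coreceptor, by 0.96 ± 0.18. Ikbkb, the kinase that frees NF-kappa B, fell by 0.88 ± 0.15, Itpr3, a calcium release channel, by 1.03 ± 0.18 and Pik3r1, the regulatory subunit of phosphoinositide 3-kinase, by 0.75 ± 0.14 (limma voom adjusted p from 0.00170 to 0.00962 for these 5). Sit1 held 2 to 6 reads in each shallow library, and its log2 fold change there was -0.43.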

How the data were processed

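The deposited table holds RPKM values made by the authors, 1 column per library. Per the submitters' processing notes the build was mm10, and libraries came from 150 ng of RNA with a TruSeq v2 kit, per the labels' protocols, which does not mark strand. No aligner, counter or annotation is stated there. Coordinates and lengths are those of GENCODE M21.

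Library totals were found from the steps of the values, and reads per gene as RPKM times length times total. All 13859 genes above 0 gave whole reads (tolerance 0.003 reads), 13032 with 1 length and 827 with separate lengths for the deep and shallow libraries. For the members, 20 matched the GENCODE length, 10 another single length, taken as the smallest that fitted, and 4 separate lengths (Fyn, Grap2, Malt1, Cblb). Why there are 2 sets of libraries and gene models is not stated.

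The planned test was limma 3.58.1 (R 4.3.3) with a trended prior on log2(RPKM + 1), over genes that reached 1 RPKM in at least 3 libraries. Fold changes on that scale understate low genes. The second was limma voom on recovered reads with genotype and library set, over genes whose shallow libraries held 10 or more reads in sum. Fits on the deep libraries alone assume that RT1 varies like WT1 and WT2. P-values are two-sided and adjusted by Benjamini-Hochberg over all genes tested. They rest on the spread of the libraries within a group and on a variance that limma shares across genes. In the fits on the shallow libraries alone, which hold few libraries, the shared part weighs heavily. In the fits on the deep libraries alone RT has no spread of its own. The p-values of these fits are therefore no measure of the spread between mice alone. On simulated data of the same depth, voom called 28 of 100 genes changed 2-fold and 98 of 100 changed 4-fold (5815 genes). The planned test called 0 and 12 of 100 (11712 genes). The simulation gave every gene the same fixed spread and held no differences of sex or cell mix within a set. Its rates therefore do not carry over to the real libraries. WT3 and WT4 differed beyond sampling noise (chi-square per degree of freedom 1.22 over 2356 genes). That value cannot tell 2 mice from 2 libraries of 1 mouse, and they were kept as 2 samples as labelled.

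The members, gene lists, second test and alternatives were chosen with earlier results of these data known. All members are named. Of the other pathway genes, the rule takes the 6 with the smallest p among those past the threshold, and a gene that it takes is not reported here.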

Additional observations from a re-analysis of the deposited data

How the results depend on the processing

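The planned test on RPKM called 0 members under each alternative except the deep libraries alone, where limma called 1 higher (Malt1) and 5 lower (Txk, Grap2, Rasgrp1, Pag1 and Lat), against 3.07% and 1.34% of all genes. Lat was at -1.45 there, against 0.14 over all libraries. In the recovered reads (limma voom, 3 higher and 8 lower), the shallow libraries alone called 7 higher and 3 lower (3.03% and 4.06% of all genes), with Lck at 0.70 and Themis at 0.17. A filter of 50 reads called 4 of the 26 members tested higher, gaining Lcp2, and 4 lower, against 12.4% and 13% of all genes. Txk, Themis, Pag1 and Ubash3a were no longer tested. A fit with no filter on reads lost Ubash3a. A fit with no term for library set called 3 higher and 4 lower (5.27% and 3.55% of all genes), losing Themis, Pag1, Ubash3a and Dgka. Leaving out each replicate in turn gave 0 (without RT1) to 6 (without WT1) members higher. It gave 0 (without RT1, when 0 of all genes were called) to 9 (without WT1 or RT2) lower. Over all genes, 12.9% were called higher and 8.84% lower without WT1, and 9.29% and 8.47% without RT2. Themis ran from -1.35 (without WT2) to 0.16 (without RT1). Scaling to the CD3 and zeta chain reads, and leaving out WT3 and WT4, both chosen after seeing the data, each called 2 higher and 7 lower (4.32% and 5.12% of all genes with the scaling, 5.85% and 3.45% without WT3 and WT4), losing Was, Plcg1 and Ubash3a and gaining Lat. Why these calls were lost or gained was not tested. Median-of-ratios size factors and the sum of WT3 and WT4 as 1 sample kept all 11 calls.

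Same-numbered libraries did not deviate together in each pair (r = 0.432, -0.179 and 0.184 for numbers 1 to 3), so the numbers were not taken to pair the mice. RT2 and WT2 are of different depth sets, and not every library correlated best with its own number, so these values do not settle whether the mice were paired. With the replicate block, the planned test called 0 members higher and 0 lower. At an unadjusted limma p under 0.05 it had 5 higher and 5 lower, against 6.41% and 3.06% of all genes. In the recovered reads the block gave 3 of the 32 members tested higher and 6 lower (limma voom), against 13% and 11.6% of all genes. Txk and Pag1 were not tested there. The depth of the shallow libraries limits members with under 10 reads there, such as Txk, Pag1, Nck1, Themis, Ubash3a and Fyn.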
